A study of Mus musculus with 2 samples.

Results

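Levels of 34 complement, coagulation and fibrinolysis genes were read in heart tissue of 2 grown male mice, from sequencing of their total RNA. The genes were chosen by membership of these pathways, with their transcript levels and the ratios between the animals from an earlier pass over the same tables already known, so both are given as a description and carry no test. They are 34 of 55536 mouse gene rows, which include 22015 nuclear protein-coding genes. All 34 were matched by symbol to 1 gene of GENCODE M21 each. Both animals were of the B6CASTF1/J strain, a first-generation cross of C57BL/6J and CAST mice, so autosomal genes carried 1 allele of each parent strain and the X-linked members Cfp and F8 the maternal copy alone; reads were not divided by allele here. Per the labels they were males of 8 to 10 months, called animals 2 and 4 (replicates 1 and 2 below), with 1 library from 300 ng of RNA each, prepared with a stranded kit after reduction of ribosomal RNA and with ERCC spike-in RNA added. The labels give both animals the same donor entry. No treatment, mutation or second tissue was part of the series, so the only spread available is that between these 2 libraries, and it can include technical differences.

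Complement is a cascade of plasma proteins that marks and lyses targets. The classical pathway begins with the C1 complex and cleaves C4 and C2, the lectin pathway cleaves the same proteins through the MASP proteases, and the alternative pathway amplifies C3 cleavage through factors B and D and properdin; all converge on C3, C5 and the membrane attack complex. Coagulation begins when tissue factor meets factor VII, proceeds through factor X with factor V as its cofactor, and is restrained on vessel walls by thrombomodulin, the endothelial protein C receptor and tissue factor pathway inhibitor, while the plasminogen activators start the removal of fibrin. The liver makes most of the circulating proteins, whereas C1q is known as a product of macrophages and von Willebrand factor, thrombomodulin and tissue-type plasminogen activator as products of endothelium.

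Sequences of a few members are shown first because the readings below turn on them. C4a and C4b are neighbouring copies on chromosome 17, both on the minus strand, and C4a is annotated in GENCODE M21 as a gene of processed transcripts, with no coding sequence. Aligned over 5367 bases, the longest transcript of each, C4a-207 and C4b-201, were identical at 96.1% of positions, with 207 mismatches and a longest identical run of 433 bases. The 120-base window of C4b coding sequence with the most differences, 19, was at chr17:34735430-34735549 (mm10, minus strand), against chr17:34816086-34816205 in C4a. Both are printed 5′ to 3′ from the GENCODE M21 transcripts, with the bases that differ in capitals.
C4b: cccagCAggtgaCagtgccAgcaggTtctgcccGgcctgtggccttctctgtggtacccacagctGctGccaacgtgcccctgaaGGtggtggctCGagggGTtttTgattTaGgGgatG
C4a: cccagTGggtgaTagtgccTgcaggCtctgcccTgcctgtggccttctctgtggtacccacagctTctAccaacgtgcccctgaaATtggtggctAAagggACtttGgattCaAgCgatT
The median coding window of that length held 3 differences and 635 of 4847 windows held 0, so most stretches of the 2 genes offer a read few bases to tell them apart.

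Upstream sequences are shown for the first component of the cascade, for the central component C3, for the initiator F3 and for the neighbours F7 and F10, which had the largest ratios between the animals. They are the 250 bases before the RefSeq start (GRCm38.p6), read on the strand of the gene: C1qb at chr4:136886201-136886450 (minus), C3 at chr17:57228137-57228386 (minus), F3 at chr3:121723287-121723536 (plus), F7 at chr8:13025784-13026033 (plus) and F10 at chr8:13037058-13037307 (plus). Capitals mark matches, on either strand, to 5 short motifs, which are the ETS and PU.1 core GAGGAA and the C/EBP motif written as TTGCNNAA, and also the AP-1 motif TGANTCA with the GATA motif AGATAA and the TATA box as TATAAA.
C1qb: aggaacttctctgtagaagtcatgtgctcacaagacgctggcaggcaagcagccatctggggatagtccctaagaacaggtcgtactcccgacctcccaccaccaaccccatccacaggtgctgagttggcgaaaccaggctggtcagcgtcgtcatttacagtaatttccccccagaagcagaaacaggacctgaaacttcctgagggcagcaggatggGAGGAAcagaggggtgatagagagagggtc
C3: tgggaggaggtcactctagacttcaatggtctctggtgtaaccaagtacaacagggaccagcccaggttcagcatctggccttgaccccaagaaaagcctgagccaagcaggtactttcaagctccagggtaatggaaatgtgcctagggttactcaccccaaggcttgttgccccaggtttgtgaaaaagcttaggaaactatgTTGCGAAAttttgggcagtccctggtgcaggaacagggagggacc
F3: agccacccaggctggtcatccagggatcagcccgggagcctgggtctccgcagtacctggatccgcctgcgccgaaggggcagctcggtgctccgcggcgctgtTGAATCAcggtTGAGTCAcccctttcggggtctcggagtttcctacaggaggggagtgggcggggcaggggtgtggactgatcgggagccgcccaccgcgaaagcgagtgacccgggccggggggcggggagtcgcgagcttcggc
F7: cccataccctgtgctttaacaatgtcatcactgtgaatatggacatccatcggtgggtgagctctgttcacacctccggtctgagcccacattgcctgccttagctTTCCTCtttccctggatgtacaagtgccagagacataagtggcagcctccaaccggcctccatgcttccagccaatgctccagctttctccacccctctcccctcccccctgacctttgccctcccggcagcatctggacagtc
F10: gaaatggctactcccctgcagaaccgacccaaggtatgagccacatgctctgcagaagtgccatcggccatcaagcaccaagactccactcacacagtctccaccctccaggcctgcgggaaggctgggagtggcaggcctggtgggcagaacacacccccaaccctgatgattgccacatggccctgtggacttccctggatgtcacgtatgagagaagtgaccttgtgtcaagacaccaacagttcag
C1qb held 1 match to the ETS and PU.1 core, starting 30 bases before the start, and C1qc held 1 on the opposite strand, 193 bases before its own. F7 also held 1, and C3 held 1 C/EBP match 45 bases before its start. F3 held 2 AP-1 matches, 146 and 135 bases before the start, and F10 held no match to any of the 5. No printed matches overlap. RefSeq upstream sequence was matched for 22 of the 34 members, 3 of them with a pair of starts. Such a member counted when either of its windows held the motif, whereas the shares over all genes are per window. The member shares are therefore not on the same unit and are raised by this. Of the 22, 6 held the ETS and PU.1 core (27.3%), against 23.3% of 32851 windows of the same length over all genes. C/EBP matches were in 3 of the 22 against 9.56% of all windows, AP-1 in 3 against 6.75%, GATA in 3 against 9.99% and TATAAA in 4 against 12.4%. These matches are letters in a window and were not tied to binding in this tissue.

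Levels below are TPM, a read number corrected for transcript length and expressed as a share of each library's total, and the ± is the SD over 2 libraries (n = 2). The libraries held 42.05 M and 39.98 M expected counts on mouse genes, with 0.203% and 0.213% of counts on spike-ins. They differed by more than sampling noise (chi-square of 15.4 per degree of freedom over 17075 genes). Heart muscle markers were high in both (Myl2, Myh6 and 4 others, summed TPM of 25472 and 27840).

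Of the 34 members, 33 were read and 22 reached 1 TPM in both libraries; among all nuclear protein-coding genes the share reaching 1 TPM in both was 48.9%. In replicate 1, 28 members reached 1 TPM and in replicate 2, 22. The 6 that reached it in replicate 1 alone were C4a, C2, Cfb, C3ar1, F5 and F10, and the 6 that reached it in neither were Cfi, Hc, C6, F7, F8 and Procr. The 7 members at 10 TPM or more in both were Serping1, C3, Cd59a, Vwf, Thbd, Tfpi and C1qb. The median over the members was 5.14 TPM in replicate 1 and 2.40 TPM in replicate 2. Protein-coding genes that reached 1 TPM in both had medians of 8.18 and 8.30 TPM.

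**Figure D1:**
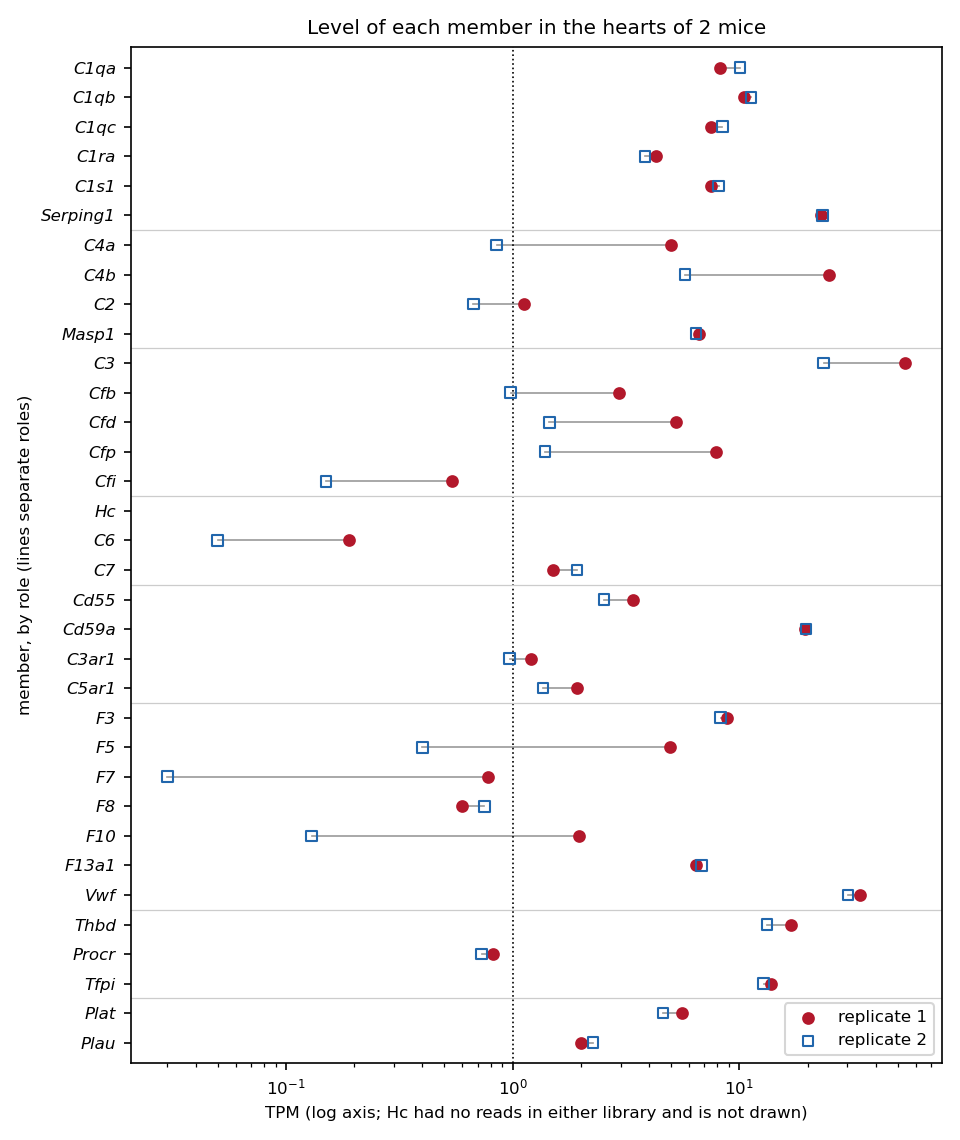
TPM of each member on a log axis in replicate 1 (filled circles) and replicate 2 (open squares), grouped by role, with a dotted line at 1 TPM. The symbols of the C1 complex, of Serping1, Cd59a, F3, F13a1 and Vwf lie close together, while those of C4a, C4b, C3, Cfb, Cfd, Cfp, F5, F7 and F10 are wide apart with replicate 1 the higher.

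The animals were compared gene by gene by a rule of size. A gene was said to differ when its expected counts summed to 200 or more, counts scaled by the TMM method stood 2-fold apart or more, and a strict exact binomial (Clopper-Pearson) interval of their ratio left out 1. The rule carries no p-value, since there is 1 library per animal, and these intervals, like the 95% intervals printed below, cover counting error only. Of 26 members with 200 or more counts, 6 differed, all of them higher in replicate 1: C4a, C4b, C3, Cfb, Cfp and F5. Over all 10960 genes tested the share that differed was 1.08% in either direction and 0.858% in the direction of replicate 1. The other 20 tested members did not differ by the rule, and their median absolute log2 ratio was 0.14, against 0.11 over all tested genes. With 50 or more counts, 9 of 31 members were past the same limits, again all higher in replicate 1, against 1.82% of all such genes; Cfd, F7 and F10 were the additions. Just inside the count limit was C4a with 201 summed counts and just outside it Cfd with 187. As a median over the 31 members, the log2 ratio (replicate 2 over 1) was -0.27, against 0.01 over 13571 genes. Since the ratios were known when the genes were chosen, these shares describe the list and are no evidence about the pathway.

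**Figure D2:**
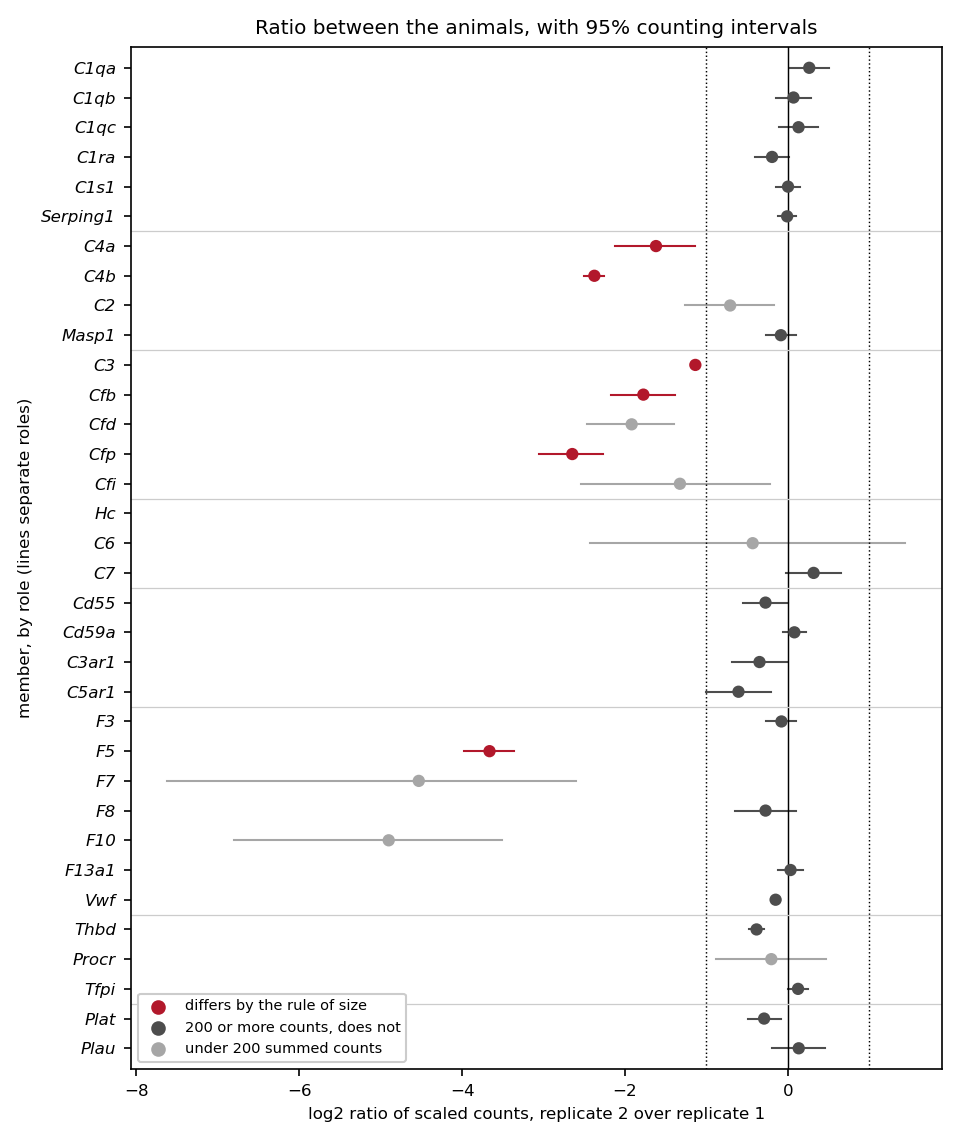
Log2 ratio of TMM-scaled counts, replicate 2 over replicate 1, for each member, with exact 95% counting intervals and dotted lines at 2-fold. The 6 members that differed by the rule (red) lie left of the lower dotted line, the 20 dark grey members lie between the dotted lines, and the pale grey ones have under 200 summed counts.

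Genes of the C1 complex were level between the animals. C1qa, C1qb and C1qc encode the 3 chains of C1q, the recognition part of C1, and lie side by side on chromosome 4 with 3.62 kb between C1qb and C1qc and 2.85 kb between C1qc and C1qa. C1qa (chromosome 4, 136895917 to 136898803, minus strand) was at 8.22 TPM in replicate 1 and 10.1 TPM in replicate 2 (9.15 ± 1.32). C1qb (chromosome 4, 136880129 to 136886187, minus strand) was at 10.5 and 11.3 TPM (10.9 ± 0.530; 362 and 366 counts), a ratio of replicate 1 over replicate 2 of 0.953 (0.822 to 1.11). C1qc (chromosome 4, 136889804 to 136893065, minus strand) was at 7.51 and 8.43 TPM (7.97 ± 0.651; 288 and 304 counts), a ratio of 0.913 (0.774 to 1.08). The 3 chains were thus read within a narrow range, and in both libraries the order was C1qb, C1qa, C1qc. C1qb exceeded C1qa by a log2 ratio of TPM of 0.26 ± 0.14, and C1qc was below C1qa at -0.19 ± 0.09, which by uncorrected counts was 0.03. C1qa had 269 and 311 counts, and its 95% interval of the log2 ratio, 0.02 to 0.50, was the only one of the 3 that left out 0.

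The C1 proteases were level as well. C1ra, the activating protease, was at 4.30 and 3.84 TPM, and C1s1, which cleaves C4 and C2 (chromosome 6, 124530345 to 124542359, minus strand), at 7.50 and 8.10 TPM (715 and 690 counts; ratio 0.999, 0.898 to 1.11), so that C1ra stood below C1s1 in both at a log2 ratio of -0.94 ± 0.19. Each has a close copy: 35.9% of the distinct 100-base windows of C1ra occur in another gene, most of them in C1rb (34.5%), and 6.87% of those of C1s1 occur in C1s2. Those copies were at 0.470 and 0.550 TPM (C1rb) and 0.20 and 0.16 TPM (C1s2), so few reads were assigned to them. Serping1, encoding the C1 inhibitor (chromosome 2, 84765387 to 84775444, minus strand), was the highest of this set at 22.96 and 23.3 TPM (1329 and 1273 counts), and its scaled ratio of replicate 1 over replicate 2 was 1.01 (95% interval 0.931 to 1.09).

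The C4 genes were far higher in replicate 1. C4b, encoding the C4 that the classical and lectin pathways cleave (chromosome 17, 34728380 to 34743882, minus strand), was at 24.9 TPM in replicate 1 and 5.75 TPM in replicate 2, from 3339 and 620 counts. The scaled ratio was 5.19-fold (95% interval 4.76 to 5.66). C4a, known in mice as sex-limited protein (chromosome 17, 34809092 to 34823464, minus strand), was at 5.0 and 0.85 TPM from 153 and 48.1 counts, a 3.07-fold ratio (2.21 to 4.34). Both copies were thus higher in the same animal, but they share 13.1% of the distinct 100-base windows of C4a and 15.2% of those of C4b, so how reads were divided between the copies is uncertain. Summed, they had 3492 and 668 counts, a ratio of 5.04-fold (4.64 to 5.48), close to that of C4b alone. The authors' deposited posterior SD of the count was 6.04 in replicate 1 and 3.82 in replicate 2, for C4a and for C4b alike. These SDs are small beside the counts of either gene. By the second set of deposited tables, described below, C4a had 150 and 44.7 counts.

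The TPM of C4a rests on a short transcript. C4a-210, a processed transcript of 354 bases, held 83.1% of C4a transcripts in replicate 1 and 52.3% in replicate 2 but drew 36.7 and 3.71 counts. C4a-205, of 4477 bases, held 13.95% and 26.6% and drew 106 and 32.5 counts. Of the 31-base words of C4a-210, 62.0% also occur in C4b, and of its 100-base windows 4.71%. C4b exceeded C4a by a log2 ratio of 2.54 ± 0.31 by TPM and 4.07 by counts, so the gap between the copies is wider by counts than per length. In the second quantification, a separate transcript table deposited for each library, that ratio of TPM was 1.76.

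Of the genes listed beside C4, Masp1 was level, mostly on a model with a shorter coding sequence. That model, Masp1-204, was at 5.87 TPM in both libraries and has 1155 coding bases. The longer coding models were at 0.07 and 0.08 TPM (Masp1-201, 2112 coding bases) and 0.58 and 0.47 TPM (Masp1-203, 2199 coding bases). The level of the gene is therefore not that of the longer forms. Masp1 is known for a lectin pathway protease, but whether Masp1-204 encodes the protease part was not examined here. Over all its models, Masp1 (chromosome 16, 23449417 to 23520815, minus strand) was at 6.64 and 6.44 TPM (490 and 445 counts), a ratio of 1.06-fold (0.931 to 1.21). C2, which forms the classical C3 convertase with C4b, was at 1.12 and 0.670 TPM from 78 and 46 counts, too few for the rule, and was higher in replicate 1 with a ratio of 1.63-fold (1.12 to 2.41).

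C3 and the alternative pathway were higher in replicate 1 in all 5 members. C3 (chromosome 17, 57203970 to 57228136, minus strand), the component on which all routes converge, was the highest member of the list in replicate 1 at 53.9 TPM and stood at 23.6 TPM in replicate 2, from 8590 and 3767 counts. The scaled ratio was 2.20-fold (2.11 to 2.28), just past the fold limit, and its 100-base windows occur in no other gene. C3 exceeded C4b in both libraries, by a log2 ratio of 1.11 in replicate 1 and 2.04 in replicate 2. Cfp, encoding properdin, which stabilises the alternative convertase (chromosome X, 20925454 to 20931555, minus strand), was at 7.91 and 1.39 TPM (416 and 64 counts), a 6.26-fold ratio (4.80 to 8.28). Cfb, encoding factor B, the protease subunit of that convertase (chromosome 17, 34856374 to 34862518, minus strand), was at 2.95 and 0.980 TPM (252 and 71 counts), a 3.42-fold ratio (2.62 to 4.52). The libraries thus stood apart for each of these genes by more than counting error. Cfd, encoding factor D, which cleaves factor B, was at 5.27 and 1.45 TPM from 149 and 38 counts (3.78-fold, 2.63 to 5.55). Factor D is also called adipsin and is abundant in fat, and of the 7 adipocyte markers here all 7 had a higher TPM in replicate 1, Retn on 8 and 3 counts. They summed to 30.2 and 17.7 TPM, of which Cidea made up 16.3 and 14.1 TPM, while Car3 was 4.05-fold, Plin1 4.36-fold and Cidec 4.82-fold higher in replicate 1. Their part in the ratio of Cfd was not tested. Cfi, encoding factor I, which inactivates C3b, had 26 and 10 counts and stayed under 1 TPM in both.

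Cfb also differed in which transcript was read. Cfb lies 85 bases from C2 on the same strand of chromosome 17, and its models Cfb-201 and Cfb-206 both encode protein and have 18 exons each, with the first base of Cfb-206 lying 341 bases downstream of that of Cfb-201. Cfb-201 held 85.8% of Cfb transcripts in replicate 1 and 19.8% in replicate 2, while Cfb-206 held 5.45% and 71.5%. In the second quantification Cfb-201 held 95.8% and 20.9%, and Cfb-206 held 64.9% in replicate 2. Both quantifications therefore put most of the gene on Cfb-201 in replicate 1 and on Cfb-206 in replicate 2. By expected counts Cfb-201 had 232 and 16.7 and Cfb-206 12.8 and 52.7, so the excess of replicate 1 lay on Cfb-201. The counts behind the replicate 2 shares are few, and the models overlap along most of their length. Gm20547, a read-through model over C2 and Cfb that shares 66.9% of the Cfb windows and 35.5% of those of C2, was listed at 0 counts in both libraries.

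**Figure D3:**
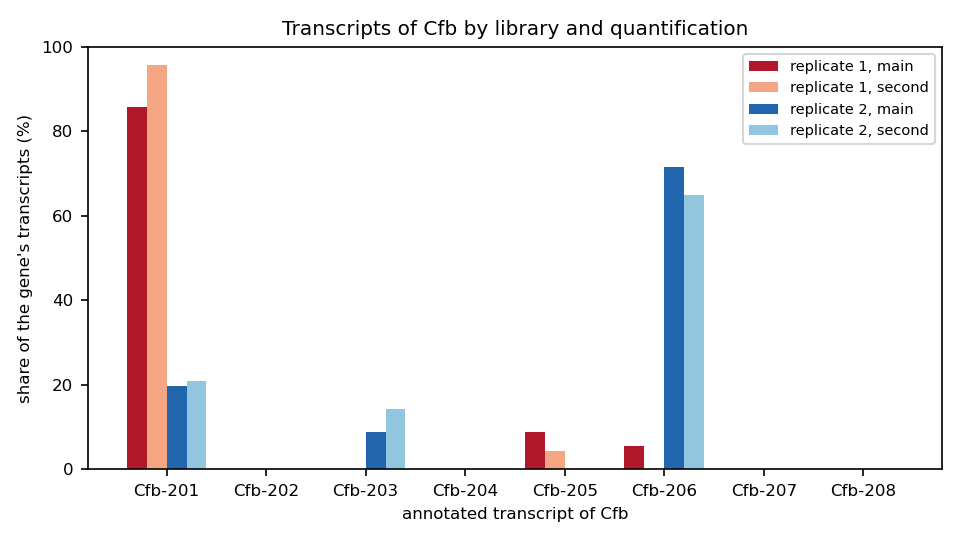
Share of each annotated Cfb transcript in percent of the gene's transcripts, for replicate 1 (reds) and replicate 2 (blues) in the main and the second quantification. Cfb-201 is the tallest bar in replicate 1 and Cfb-206 in replicate 2, in both quantifications.

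The terminal components were scarce. Hc, the mouse gene for C5, had 0 counts in both libraries, which with a floor of 3 counts allows up to 0.0574 TPM in replicate 1 and 0.0609 TPM in replicate 2. C6 had 7 and 5 counts. C7, which joins the forming membrane attack complex, was at 1.51 and 1.92 TPM (135 and 162 counts) and was above C6 in both libraries. The genes that complete the complex were little read too, with C8a, C8b and C9 at 0 counts in both libraries and C8g at 33 and 19 counts.

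Surface regulators and receptors showed no member past the rule. Cd59a, encoding the anchored protein that blocks the membrane attack complex (chromosome 2, 104095801 to 104115354, plus strand), was at 19.4 and 19.7 TPM (850 and 866 counts), with a ratio of 0.946 (0.859 to 1.04) for replicate 1 over replicate 2. Cd55, encoding decay-accelerating factor, was at 3.41 and 2.53 TPM, so Cd59a stood above it by a log2 ratio of 2.74 ± 0.32. The anaphylatoxin receptors were low. C3ar1 was at 1.21 and 0.970 TPM and C5ar1 at 1.93 and 1.36 TPM, and C5ar1 had the largest ratio among the tested members that did not differ (1.52-fold, 1.16 to 2.01). C3ar1 was below C5ar1 per length (log2 ratio -0.58 ± 0.13) but above it by counts (0.48).

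Among coagulation genes, those of the initiating and common pathway split. F3, encoding tissue factor, the cell-surface initiator (chromosome 3, 121723537 to 121735048, plus strand), was at 8.85 and 8.28 TPM (514 and 469 counts), a ratio of 1.06-fold (0.930 to 1.2). F5, encoding the cofactor of activated factor X (chromosome 1, 164151838 to 164220277, plus strand), was at 4.95 TPM in replicate 1 and 0.400 TPM in replicate 2, from 1262 and 96 counts, a ratio of 12.7-fold (10.3 to 15.8), the largest among the tested members. F5 has 1 annotated transcript and no 100-base window in common with another gene. F7 and F10, which encode factors VII and X and lie 1498 bases apart on the same strand of chromosome 8 (chromosome 8, 13026034 to 13035809, plus strand and chromosome 8, 13037308 to 13056676, plus strand), had fewer counts but ratios as wide. F7 had 48 counts in replicate 1 and 2 in replicate 2, a ratio of 23.1 with an interval from 6.06 to 196. F10 had 124 and 4 counts, a ratio of 29.9 (11.4 to 111). F3 was thus close to level while F5, F7 and F10 were read almost wholly in replicate 1.

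Other coagulation members were near level. Vwf, encoding von Willebrand factor, which tethers platelets and carries factor VIII (chromosome 6, 125546774 to 125686679, plus strand), was at 34.1 and 30.1 TPM (5041 and 4377 counts), a ratio of 1.11-fold (1.07 to 1.16). F13a1, encoding the subunit of factor XIII that cross-links fibrin (chromosome 13, 36867178 to 37050244, minus strand), was at 6.46 and 6.79 TPM (715 and 705 counts), a ratio of 0.977 (0.880 to 1.09). F8, encoding factor VIII, was under 1 TPM in both at 0.60 and 0.75 TPM and had 138 and 110 counts, so TPM and scaled counts differ in sign for it. Its short transcript F8-203 held 0% in replicate 1 and 43.1% in replicate 2 on 6.10 counts. Vwf exceeded F8 by a log2 ratio of 5.58 ± 0.35.

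The anticoagulant genes of vessel walls were at like levels in both animals. Thbd, encoding thrombomodulin, which turns thrombin toward protein C (chromosome 2, 148404466 to 148408188, minus strand), was at 16.9 and 13.3 TPM (2136 and 1577 counts), and its ratio of 1.31-fold (1.22 to 1.39) left out 1 but was below the fold limit. Tfpi, encoding the inhibitor of the tissue factor complex (chromosome 2, 84432855 to 84476775, minus strand), was at 13.8 and 12.8 TPM (999 and 1050 counts) with a ratio of 0.917 (0.840 to 1.00). Procr, the endothelial protein C receptor gene, had 43 and 36 counts and was below Thbd by a log2 ratio of -4.28 ± 0.13. Tfpi exceeded F3, whose product it inhibits, by 0.64 in replicate 1 and 0.63 in replicate 2 on the same scale, and by 0.92 and 0.76 in the second quantification.

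Of the plasminogen activators, Plat (tissue-type; chromosome 8, 22757727 to 22782844, plus strand) was at 5.61 and 4.61 TPM (461 and 363 counts) and Plau (urokinase) at 2.01 and 2.26 TPM. Plat was the higher in both libraries, with a log2 ratio of 1.25 ± 0.32. Neither differed between the animals by the rule (Plat 1.22-fold, 1.06 to 1.41; Plau 0.911, 0.728 to 1.14). In all 13 pairs of genes with linked roles the order of the TPM levels was the same in both libraries. Other pairs were C2 over Cfb (-0.97 ± 0.60) and C7 over C6 (4.13 ± 1.61), both with few counts.

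Folds close to these came from the second quantification. There the ratios were 5.01-fold for C4b, 2.19-fold for C3, 3.57-fold for Cfb, 5.95-fold for Cfp and 13.1-fold for F5, and C4a had fewer than 200 counts (3.20-fold). Of 27 members with a mean of 1 TPM or more, 1 moved by over 1.5 times in level between the quantifications, which was Vwf with a mean of 32.1 TPM in the main tables and 21.2 TPM in the second. Vwf-209, a processed transcript of 456 bases, held 28.9% and 28.3% of Vwf transcripts in the main tables on 122 and 99.6 counts, and 26.2% and 24.7% in the second. Vwf-203, which encodes the protein, held 38.1% and 40.5% in the main tables and 60.7% and 61.9% in the second.

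**Figure D4:**
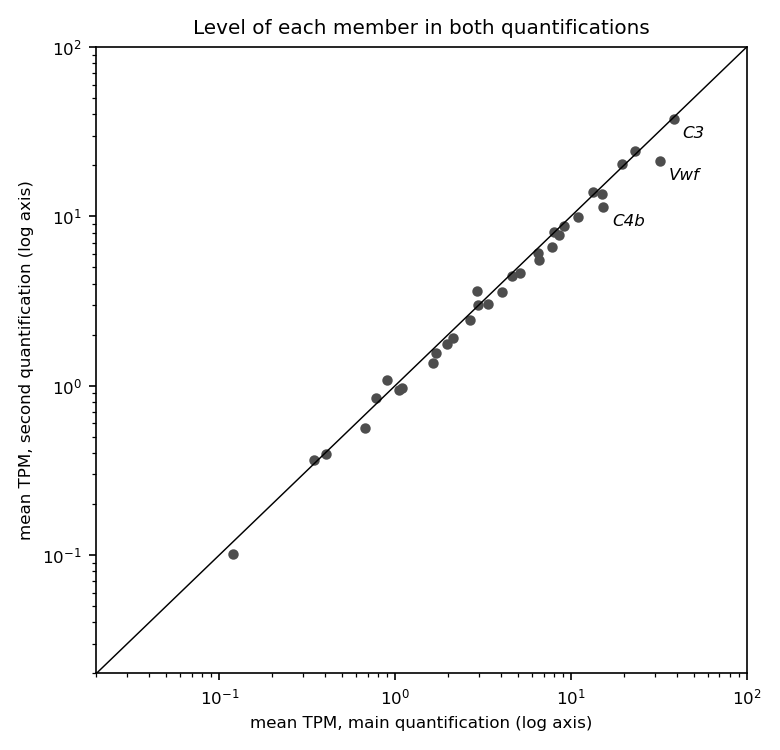
Mean TPM over the 2 libraries in the main (x) and the second quantification (y), both on log axes, 1 point per member with a level above 0 in both, with the line of equality. Points lie near the line, and Vwf lies below it at 32.1 against 21.2 TPM.

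The leading transcript, the one with the largest mean share, could be read in both quantifications for 25 members with over 1 transcript and was the same in 20. With 200 or more counts it was the same in 16 of 19 members, and the background share over protein-coding genes of that kind was 82.2%. It was a protein-coding form for Serping1 (Serping1-201, 98.5% and 99.6%), C3 (C3-201, 89.95% and 96.3%) and Cfp (Cfp-201, 97.99% and 89.5%). The same held for Plat (Plat-201, 95.1% and 96.1%) and Masp1 (Masp1-204, 88.5% and 91.1%). Masp1-204 has a shorter coding sequence than the coding models Masp1-201 and Masp1-203. The 5 that differed between quantifications were C1s1, C6, C5ar1, F10 and Tfpi. For C1s1, C1s1-204 held 49.3% and 64.1% in the main tables but 0.00273% and 0.834% in the second, where C1s1-203 held 95.9% and 91.2%, and the mean level of the gene was 7.80 TPM in the main tables and 6.60 TPM in the second. For C5ar1, C5ar1-201 led in the main tables at 57.3% and 26.7% and C5ar1-202 in the second at 100% and 84.5%.

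Other genes of the pathways were read from lists chosen beside the members. Of 33 other complement genes, 12 reached 1 TPM in both libraries and 8 had 0 counts in both, among them C9 and the mannose-binding lectins Mbl1 and Mbl2. Among the highest were Clu, the fluid-phase inhibitor clusterin (273 and 260 TPM), C1qbp (76.7 and 81.9 TPM), Cr1l, a membrane regulator of C3 (21.9 and 21.9 TPM), Cd93 (16.8 and 16.9 TPM) and Vtn, encoding vitronectin (6.08 and 8.46 TPM). None of those named differed by the rule, whereas Itgam and Itgb2, the chains of complement receptor 3, did, at 6.66-fold and 7.82-fold higher in replicate 1.

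Of 29 other coagulation genes, 7 reached 1 TPM in both and 13 had 0 counts in both, including the 3 fibrinogen chains Fga, Fgb and Fgg. Gas6 (41.2 and 42.6 TPM), the factor V and VIII transport receptors Lman1 (22.2 and 24 TPM) and Mcfd2 (21.9 and 21.9 TPM), the vitamin K enzymes Ggcx (10.9 and 11.4 TPM) and Vkorc1 (4.93 and 6.77 TPM), and the thrombin receptor F2r (7.26 and 8.83 TPM) were the highest, and 0 of the 7 with 200 or more counts differed. Of 13 other fibrinolysis genes, 7 reached 1 TPM in both and 4 had 0 counts, Plg among them. Lrp1 (30.96 and 28.4 TPM), Plgrkt (9.77 and 9.20 TPM) and Serpine2 (8.00 and 9.10 TPM) were level. Anxa2 (30.3 and 17.7 TPM) and its partner S100a10 (27.7 and 16.9 TPM), a cell-surface plasminogen receptor, were higher in replicate 1 by 1.76-fold and 1.67-fold, short of the fold limit. With under 200 counts in both libraries together, 3 more genes of this list were higher in replicate 1: the urokinase receptor gene Plaur (107 and 37 counts, 2.79-fold, 1.90 to 4.17), A2m (60 and 17 counts, 3.40-fold, 1.96 to 6.22) and Serpinb2 (159 counts and 1 count, a ratio of 153 with an interval from 27.1 to 6090). Serpinb2, a plasminogen activator inhibitor, also stands in the list of serous cavity macrophage markers below. The median log2 ratio of the 9 with 50 or more counts was -0.74.

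Several lists of cell type markers were also higher in replicate 1. With 2 libraries, a shared direction does not link a list to any member. The 8 markers of serous cavity macrophages, led by Fn1 and Alox15, summed to 141 TPM in replicate 1 and 16.2 TPM in replicate 2, with 8 of 8 higher in replicate 1 and Alox15 at 2230 counts against 1. Neutrophil markers (S100a9 and S100a8 the highest) summed to 13.5 and 1.63 TPM, with 8 of 8 higher in replicate 1 and Ngp and Ltf at 0 counts in replicate 2. Of these 8, 3 had 50 or more summed counts and 0 had 200 or more. Lung epithelium markers, led by Bpifa1 and Scgb1a1, summed to 38.6 and 0.230 TPM, with 6 of 7 higher in replicate 1 and Sftpc at 0 counts in both. Only 2 of the 7 had 50 or more summed counts. The 10 general macrophage markers, led by Lyz2 and Csf1r, summed to 119 and 56.3 TPM, and of these Lyz2, Cd14 and Adgre1 differed by the rule while Csf1r (10.1 and 9.70 TPM), Cd163 (2.97 and 2.87 TPM) and Mertk (1.83 and 1.83 TPM) were close to level. Lyz2 made up most of that sum (88.2 and 29.2 TPM). In the same list Mrc1 (578 and 720 counts, 1.29-fold) and Cx3cr1 (39 and 92 counts, 2.45-fold) were higher in replicate 2, Mrc1 within the fold limit and Cx3cr1 with too few counts for the rule. The part of these marker lists in the ratios of C4b, C3, Cfb, Cfp, F5, F7 and F10 was not tested. Whether the marker reads came from cells of the heart itself was not tested either. In whole tissue, fewer cells of a type and less RNA per cell cannot be told apart.

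Further lists with a higher summed TPM in replicate 1 were those of erythroid cells (Hbb-bs and Hba-a1 the highest; 11660 and 6319 TPM), mesothelium (Msln, Upk3b; 26.6 and 15.5 TPM), fat (Cidea, Car3; 30.2 and 17.7 TPM), platelets (Pf4, Ppbp; 27.4 and 16.2 TPM), lymphocytes (Ighm, Cd79b; 8.03 and 5.38 TPM) and hepatocytes (Ahsg, Ttr; 2.81 and 1.86 TPM). The sums of the lymphocyte and hepatocyte lists rest on few reads, with 1 marker of each at 50 or more counts. By TPM, 7 of 8 lymphocyte markers but only 3 of 7 hepatocyte markers were higher in replicate 1. Apoa1 and Hpx, a pair of liver-secreted protein genes in the hepatocyte list, were at 0 counts in both. The part of any of these lists in the levels or ratios of the members was not tested. Lists of endothelium (Egfl7, Cdh5; 244.3 and 243.96 TPM), mural cells (Rgs5, Abcc9; 263 and 264 TPM) and fibroblasts (Gsn, Dcn; 445 and 475 TPM) were level. The members introduced above as endothelial products were somewhat higher in replicate 1, short of the fold limit. They were Vwf (1.11-fold, 1.07 to 1.16), Thbd (1.31-fold, 1.22 to 1.39) and Plat (1.22-fold, 1.06 to 1.41). The other anticoagulant genes of vessel walls did not share a clear direction. Tfpi was at 0.917 (0.840 to 1.00) and Procr at 1.15 (0.722 to 1.84) for replicate 1 over replicate 2.

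**Figure D5:**
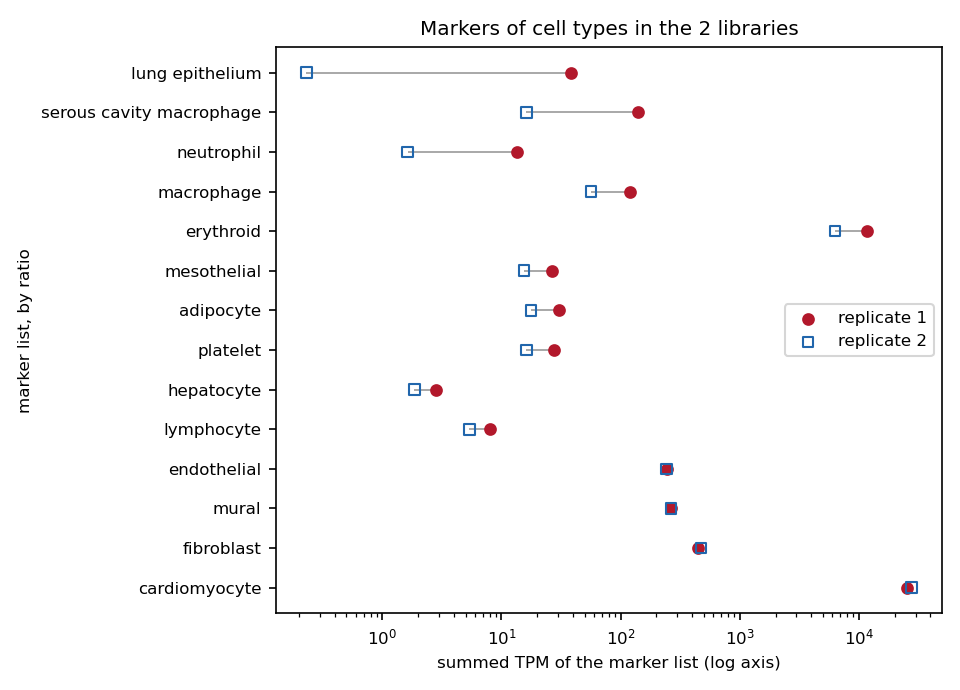
Summed TPM of 14 marker lists on a log axis in replicate 1 (filled circles) and replicate 2 (open squares), ordered by their ratio. Lung epithelium, serous cavity macrophage and neutrophil lists are widest apart, and those of endothelium, mural cells, fibroblasts and heart muscle nearly coincide.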

How the data were processed

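Total RNA from the heart of 2 mice of 1 group was sequenced, with 1 library per animal. The authors deposited gene and transcript tables per library with expected counts (estimated, not whole), TPM and FPKM, and each transcript's percent share of its gene, in the column layout of RSEM, per the file headers. The authors' posterior SD of each count is also in those deposited tables and was used for C4a and C4b. A second quantification with estimated counts and TPM was deposited in the column layout of kallisto, per the file headers, and summed per gene. FPKM was not used. Per the labels the assembly is mm10; the tables' identifiers match GENCODE M21. For the aligner and all tools, versions were not given in the sources used here. Rows with no mouse gene other than spike-ins (26249 rows, 63 and 60 counts) were left out.

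Expected counts were rounded to whole numbers. Libraries were scaled with TMM in edgeR 4.0.16 (R 4.3.3); DESeq2 1.42.0 size factors, spike-in counts and total protein-coding counts were alternatives. Ratios carry exact Clopper-Pearson intervals at 99.9% for the rule and 95% in print, and reads without molecular identifiers are not independent molecules, so they cover counting error only. A count of 0 on 1 side was set to a floor of 3 counts. Ratios of 2 libraries have no replicate check and no p-value was computed. The rule of size was tested on simulated counts that held counting noise alone. They lack the further spread between these libraries, so that test cannot show how the rule performs on these data. Distinct 31-base words and 100-base windows of member transcripts were looked up in all GENCODE M21 transcripts, sense strand. Upstream sequences came from RefSeq (GRCm38.p6). The software was pandas 2.3.3, scipy 1.17.1, numpy 2.4.6, Biopython 1.88 and matplotlib 3.10.9 under Python 3.11.15.

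The members, the other pathway and marker lists, the pairs and the motifs were chosen with earlier results of these data known. The naming rule was every member, the 6 highest genes of each other pathway list, and the 2 highest markers of each marker list with its summed TPM; Itgam, Itgb2, C8g, Plaur, A2m, Serpinb2 and other markers named for their values were chosen after those were seen. Some genes that the rule names are not reported here. Position, counts, TPM and ratio are given for members with a mean of 5 TPM or more, for those that differ, and for C4a and C4b. Reads of the CAST allele that failed to map to the mm10 reference were not analysed here.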

Additional observations from a re-analysis of the deposited data

How the results depend on the processing

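TPM rescaled to nuclear protein-coding genes multiplies every level by 2.79 in replicate 1 and 2.73 in replicate 2, which takes the number of members within 1.5 times of their level from 27 to 0 and the median over members from 3.77 to 10.4 TPM, and leaves all 13 pair orders as they were. Under expected counts 11 pairs kept their order, and C1qc over C1qa (0.033) and C3ar1 over C5ar1 (0.48) turned in sign, since counts are not corrected for length. The count of members at 1 TPM in both libraries lay between 18 and 29 over the alternatives, with 22 in replicate 2 alone and 28 in replicate 1 alone. Leaving out each library moved the median level between 2.40 and 5.14 TPM, and kept 19 (without replicate 1) and 20 (without replicate 2) member levels within 1.5 times. The number of members that differed was 6 under the other 3 scalings and at 1.5-fold, the same 6 genes each time, 9 at minimums of 50 and 10 counts, and 5 in the second quantification, where C4a fell below the count minimum. The median log2 ratio over members lay between -0.32 and -0.17. A ratio between the animals for the 8 members under 200 counts is limited by depth: C6 (7 and 5 counts) and Procr (43 and 36 counts) had intervals on both sides of 0. No paired analysis was possible because there is 1 group.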
